A study of Mus musculus with 12 samples.

Results

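The genes described here encode the integrins, collagens and laminins, the receptors and structural proteins by which cells hold on to the extracellular matrix and to each other. They were chosen by gene symbol and a count minimum: symbols of the integrin alpha and beta, collagen and laminin families with a summed expected count of at least 100 over all 12 libraries. Of 86 names that matched, 52 reached that minimum, 3 of these were left out by the rule and are not analysed here, and the remaining 49 are the members, out of 24411 genes listed. They comprise 22 integrin chains, 3 proteins that bind an integrin tail and carry its name (Itgb1bp1, Itgb1bp2 and Itgb3bp), 19 collagen chains and 5 laminin chains. The members nearest above the minimum were Itgb6 with 171 counts in all libraries together, Itga3 with 204, Col27a1 with 222 and Col28a1 with 238. Just below it lay Col4a6 with 47, Col15a1 with 52, Col6a6 with 57 and Col4a4 with 59.

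RNA came from mouse bone marrow cells that were negative for lineage markers and positive for cKit, a gate that holds hematopoietic stem and progenitor cells, taken from femora and tibiae. Total marrow of CD45.2 donors on the C57BL/6 strain was mixed with wild-type CD45.1 support marrow in equal cell numbers and given to CD45.1 recipients after lethal irradiation in 2 doses of 450 cGy. All donors carried Mx1-Cre, a Cre recombinase that interferon or the interferon inducer pIpC switches on, and 4 weeks after transplantation all recipients received 3 doses of pIpC at 20 mg/kg. Cells were taken 6 months later. By its title, the study concerns aberrant splicing of EVI1 in leukemia with a rearranged EVI1 gene. The 4 groups of 3 libraries differ in the donor: Mx1-Cre alone (control), Mx1-Cre with the inv(3) rearrangement, Mx1-Cre with 1 mutant allele of the splicing factor Sf3b1 (Sf3b1 K700E), and Mx1-Cre with both (double). Cre under Mx1 acts in many interferon-responsive cells and not in blood cells only. Recipient and support cells carry none of the alleles, and the sources used here do not say whether donor cells were sorted away from them. Nor do they give the age and sex of the donors or the antibodies of the lineage gate.

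An integrin is a heterodimer of an alpha and a beta chain, and the pairing sets what it binds. The β2 chain makes the leukocyte integrins, which bind ICAMs and complement fragments. The α4 chain with β1 or β7 binds VCAM1 and holds progenitors in the marrow. Collagen chains wind into triple helices, and laminins are trimers of an alpha, a beta and a gamma chain that, with type IV collagen, form the sheet of basement membranes; in marrow most matrix is made by stromal, bone-forming and vessel cells, which a cKit gate largely leaves out.

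Promoter sequences are shown for a pair of neighbouring gene sets whose levels are compared below. They come from RefSeq on GRCm38.p6 and run from 250 bases before to 50 bases after the start of transcription. The table has a window for 37 of the 49 members. Col4a1 (chr8:11198423-11312826, minus strand) and Col4a2 (chr8:11312805-11449287, plus strand) lie head to head and share 22 bases at their 5′ ends, so that their windows, chr8:11312777-11313076 and chr8:11312555-11312854, have 78 bases in common. Capitals mark CCAAT (the CCAAT box) and GGGCGG (the GC box read by SP1-type factors), searched on both strands.
Col4a1: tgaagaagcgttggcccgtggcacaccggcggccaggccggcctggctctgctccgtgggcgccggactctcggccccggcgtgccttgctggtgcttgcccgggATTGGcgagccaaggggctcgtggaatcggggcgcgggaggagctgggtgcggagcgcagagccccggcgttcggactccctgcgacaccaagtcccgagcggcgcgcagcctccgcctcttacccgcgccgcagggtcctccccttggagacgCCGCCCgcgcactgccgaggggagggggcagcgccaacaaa
Col4a2: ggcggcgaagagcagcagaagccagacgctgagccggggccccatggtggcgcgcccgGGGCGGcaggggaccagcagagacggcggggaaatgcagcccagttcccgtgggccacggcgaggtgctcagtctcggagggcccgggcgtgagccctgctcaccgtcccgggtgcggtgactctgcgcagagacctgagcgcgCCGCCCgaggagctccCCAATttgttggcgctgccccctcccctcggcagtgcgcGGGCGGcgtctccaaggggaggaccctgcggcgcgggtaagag
Col4a1 has 1 CCAAT at positions -145 to -141 and 1 GGGCGG at 10 to 15, counted from the start of transcription with no position 0. Col4a2 has 1 CCAAT at -32 to -28 and 3 GGGCGG. Of 32851 windows of this length in the table, 37.4% hold CCAAT and 35.7% hold GGGCGG. The genes of the β2-binding alpha chains lie close together on chromosome 7: Itgax (chr7:128129547-128150657) starts 11055 bases after the end of Itgam (chr7:128062640-128118491), and Itgad (chr7:128154376-128223816) starts 3718 bases after Itgax. Itgal (chr7:127296260-127335138) ends 727501 bases before Itgam. All of them are on the plus strand. Their windows are shown for Itgam and Itgax (chr7:128062390-128062689 and chr7:128129300-128129599), with the purine-rich letters GAGGAA, a form read by the ETS factor PU.1, in capitals on either strand. The shorter core GGAA common to ETS factors was not searched for.
Itgam: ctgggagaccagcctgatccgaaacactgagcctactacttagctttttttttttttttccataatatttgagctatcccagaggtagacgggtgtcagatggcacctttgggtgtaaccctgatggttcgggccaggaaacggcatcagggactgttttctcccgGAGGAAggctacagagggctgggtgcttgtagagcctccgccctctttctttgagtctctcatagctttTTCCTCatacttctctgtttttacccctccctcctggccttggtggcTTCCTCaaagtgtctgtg
Itgax: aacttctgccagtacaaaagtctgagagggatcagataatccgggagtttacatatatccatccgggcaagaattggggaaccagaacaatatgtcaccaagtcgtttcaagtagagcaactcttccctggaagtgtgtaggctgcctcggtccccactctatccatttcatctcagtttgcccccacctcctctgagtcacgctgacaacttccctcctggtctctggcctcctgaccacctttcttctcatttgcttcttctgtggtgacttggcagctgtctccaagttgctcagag
Itgam holds GAGGAA 3 times and Itgax not at all, and 28.3% of all windows hold it at least once. These matches describe letters in the window and say nothing of binding.

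The libraries held between 73074797 and 86555638 expected counts, of which the members took between 0.154% and 0.180%. Kit was at 455 ± 13.5 CPM (counts scaled to a common library total, SD, n = 3) in control, 437 ± 5.29 in inv(3), 429 ± 7.34 with Sf3b1 K700E and 458 ± 13.3 in double libraries. The inv(3) libraries stood apart in sex-linked RNA: 4 Y-linked genes together had 4 to 8 counts in each of them and 19200 to 25380 in each other library, and Xist was at 1790 to 2100 CPM against 23.2 to 210.0 elsewhere. In comparisons with the inv(3) group, the effect of the allele and of this difference cannot be told apart. The comparison of double with Sf3b1 K700E libraries, in which inv(3) is added as well, does not have it in Y-linked RNA. In Xist the Sf3b1 K700E libraries, at 77.1 to 210.0 CPM, were above the double (23.2 to 40.5) and control libraries (24.0 to 39.9). The only members on the X chromosome are Col4a5 and Itgb1bp2. The labels do not say whether replicates are separate mice, so that a p-value here reflects only how these samples scatter.

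Levels of different genes are compared in TPM, a share of all transcripts that allows for gene length. Over all 12 libraries Itgb1, the common β1 chain, had the highest mean at 101.9 ± 11.02 TPM (SD), followed by Itgam at 89.9 ± 31.5, Itga4 at 89.4 ± 9.28 and Itgb2 at 69.8 ± 14.7. Neighbours in this order differed by less than their SDs added together, whereas Itgb1 and Itgb2 differed by more. Next came Itgal at 43.9 ± 22.2, Itga6 at 41.5 ± 7.94 and Itga5 at 32.0 ± 0.840, then Itgb1bp1 at 20.2 and Itgb7 at 16.7 TPM. Between 9 and 11 members had a group mean of 10 TPM or more, depending on the group, and 24 to 26 lay below 1 TPM. Among the 19 collagens, 12 to 14 lay below 1 TPM in each group. A further 34 names of these families were below the minimum of counts, 9 of them at 0 in all libraries. They include the stromal collagen Col3a1 with 6 counts in all libraries together, the type VI chains Col6a1 (2 counts), Col6a2 (2) and Col6a3 (10), and the laminin chains Lamb1 (7) and Lama4 (34).

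**Figure D1:**
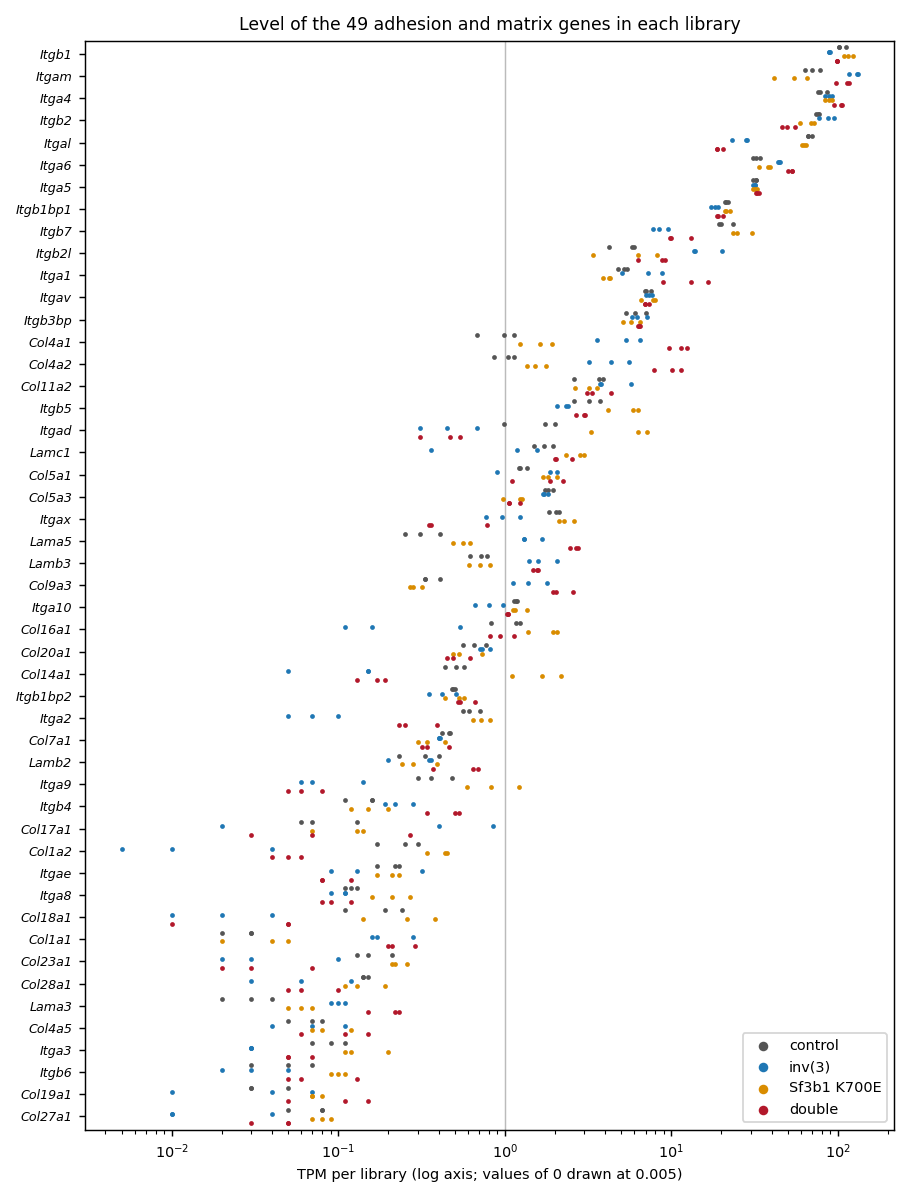
TPM of the 49 members in each of 12 libraries (log axis), ordered by mean, with 1 point per library coloured by group. Integrin chains fill the upper end, led by Itgb1 at a mean of 101.9 TPM, and most collagens lie left of the line at 1 TPM.

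Tests used edgeR's quasi-likelihood F test with Benjamini-Hochberg adjustment over 13755 genes, and a gene is said to have risen or fallen where the adjusted p was under 0.05. All 49 members passed the low-count filter. Fold changes are on the log2 scale with standard errors, and levels in single libraries are CPM after TMM scaling. In inv(3) against control libraries 13 members rose and 14 fell, 55.1% of the 49. Of all genes tested 18.4% rose and 20.3% fell in that comparison, 38.7% together. In double against Sf3b1 K700E libraries, which share no library with that comparison, 14 rose and 15 fell (59.2% of members). Of all genes 25.7% rose and 23.5% fell there, 49.2% together. In double against control libraries 14 rose and 12 fell (53.1% of members), beside 20.8% and 20.4% of all genes, 41.1% together. Fewer were called where the groups differ by the mutant Sf3b1 allele: 4 members rose and 1 fell in Sf3b1 K700E against control (10.2% of members), beside 3.94% and 4.9% of all genes, 8.84% together. In double against inv(3) libraries 8 members rose and 6 fell (28.6% of members), beside 13.4% and 9.13% of all genes, 22.6% together. The members' median absolute log2 fold change was 0.78 in inv(3) against control, beside 0.19 over all genes tested, and 0.97 beside 0.23 in double against Sf3b1 K700E. Many members are low in level, where fold changes scatter more.

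**Figure D2:**
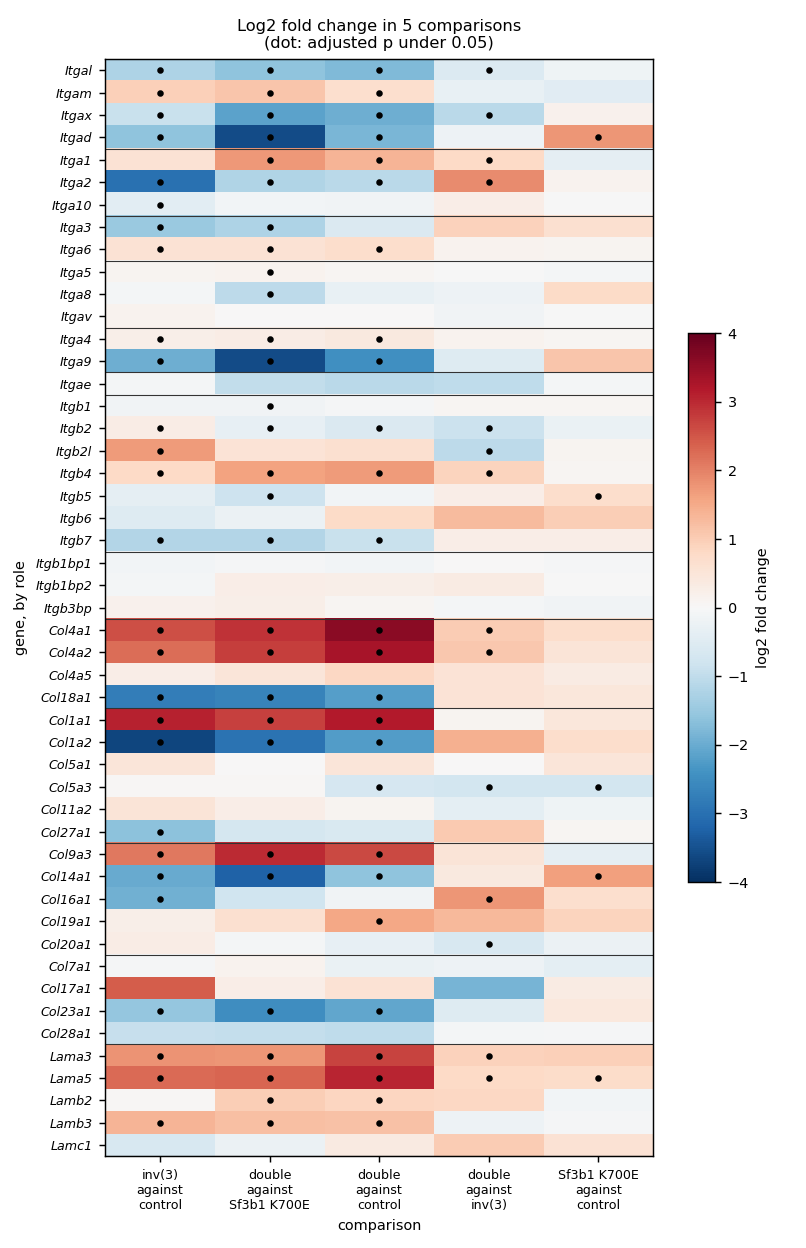
Log2 fold changes of the 49 members (rows, grouped by role) in 5 comparisons (columns), with a dot where the adjusted p was under 0.05. The first and second columns, in which inv(3) is added to control and to Sf3b1 K700E cells, share most of their colours, with Itgb2 of opposite sign.

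The inv(3) allele went with the same call in both backgrounds for 22 of the 49 members, beside 30.8% of all genes tested. The 11 that rose in both were Itgam, Itga6, Itga4, Itgb4, Col4a1, Col4a2, Col1a1, Col9a3, Lama3, Lama5 and Lamb3. The 11 that fell in both were Itgal, Itgax, Itgad, Itga2, Itga3, Itga9, Itgb7, Col18a1, Col1a2, Col14a1 and Col23a1. These make up 11 of the 13 that rose and 11 of the 14 that fell without the Sf3b1 mutation, and 11 of 14 and 11 of 15 with it. Itgb2 was called in opposite directions. Neither comparison called 16 members. Among those called in both, Col1a1 reached the count minimum only through the libraries with inv(3). Itga3, Col18a1, Col1a2 and Col23a1 reached it only through the libraries without inv(3). For these genes, membership was not independent of the difference. In bulk RNA, fewer cells of a type and less RNA per cell cannot be told apart, which holds for each result below.

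The alpha chains that pair with β2 moved in opposite directions, Itgam up and the other 3 down. Itgal, the alpha chain of LFA-1, which binds ICAMs, was at 193, 194 and 203 CPM in control libraries, 88.0, 74.7 and 88.2 in inv(3), 172, 172 and 181 with Sf3b1 K700E and 55.7, 61.8 and 55.8 in double libraries. Every library with inv(3) was below every library without it, and the double group was below the inv(3) group with no overlap. It fell in inv(3) against control (-1.23 ± 0.07, adjusted p = 2.2e-07), in double against Sf3b1 K700E (-1.60 ± 0.07, adjusted p = 2.9e-08) and in double against inv(3) (-0.53 ± 0.07, adjusted p = 0.00072). Itgam, the alpha chain of the complement receptor CR3 and itself a usual lineage antigen (CD11b), was at 202, 184 and 164 CPM in control, 359, 381 and 331 in inv(3), 104, 133 and 163 with Sf3b1 K700E and 258, 307 and 307 in double libraries. Its level was higher in each of the 6 libraries with inv(3) than in each of the 6 without. It rose in inv(3) against control (0.96 ± 0.14, adjusted p = 0.00033) and in double against Sf3b1 K700E (1.12 ± 0.14, adjusted p = 7.4e-05). Control and Sf3b1 K700E libraries did not overlap in Itgam, but the difference did not pass (-0.46 ± 0.14, adjusted p = 0.066).

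As a share of the TPM of all 4 β2-binding alpha chains, Itgal made up 47.7% ± 2.97 in control (SD, n = 3), 17.2% ± 2.16 in inv(3), 50.7% ± 3.65 with Sf3b1 K700E and 15.0% ± 1.10 in double libraries. Itgam made up 49.7% ± 3.42, 81.8% ± 2.15, 42.8% ± 5.50 and 84.3% ± 1.08 in the same order. The 2 chains were thus near parity without inv(3), with an Itgam to Itgal ratio of 1.05 ± 0.138 in control and 0.852 ± 0.167 in Sf3b1 K700E, and stood at 4.83 ± 0.787 in inv(3) and 5.64 ± 0.499 in double libraries. Of 13 markers of mature neutrophils, which carry Itgam, 9 rose and 1 fell in inv(3) against control (76.9%, beside 38.7% of all genes). In double against Sf3b1 K700E 8 rose and none fell (61.5%, beside 49.2%). The summed level of these markers was 1781 to 2485 CPM in control, 5214 to 6274 in inv(3), 1495 to 2562 with Sf3b1 K700E and 3224 to 4512 in double libraries. S100a8 made up 39.1% to 45.4% of that sum in each group, and none of the 13 was at 0 in any group. Other myeloid lists went the other way. Of 10 monocyte and dendritic markers none rose and 8 fell in inv(3) against control (80.0%, beside 38.7%). In double against Sf3b1 K700E 1 rose and 8 fell (90.0%, beside 49.2%). Most tissue macrophage markers, given below, fell in both comparisons. The part of any of these cell types in the Itgam result was not tested.

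The other 2 β2-binding alpha chains, both carried by macrophages and dendritic cells, were low. Itgax (CD11c) was at 4.52, 4.11 and 4.69 CPM in control, 1.81, 3.08 and 2.30 in inv(3), 5.64, 4.76 and 4.54 with Sf3b1 K700E and 0.798, 1.81 and 0.819 in double libraries. The inv(3) and double groups lay below the other groups without overlap. Its level fell in inv(3) against control (-0.89 ± 0.28, adjusted p = 0.025) and in double against Sf3b1 K700E (-2.13 ± 0.29, adjusted p = 0.00011). The first call ended without control replicate 1 (adjusted p = 0.059), control replicate 3 (0.072), inv(3) replicate 1 (0.077) or inv(3) replicate 3 (0.066). Itgad (CD11d) was at 2.16, 3.87 and 4.37 CPM in control, 1.56, 0.757 and 1.07 in inv(3), 13.4, 14.8 and 6.92 with Sf3b1 K700E and 0.691, 1.07 and 1.20 in double libraries. The Sf3b1 K700E libraries were above all others. Itgad fell by 3.57 ± 0.38 in double against Sf3b1 K700E (adjusted p = 2.2e-05) and by 1.62 ± 0.37 in inv(3) against control (adjusted p = 0.0051). In the unstranded libraries, 8.6% of the exon bases of Itgad overlap another listed gene, 4931431B13Rik.

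The β2 chain itself went up with inv(3) alone and down with inv(3) on the Sf3b1 mutant background. Itgb2 was at 116, 121 and 119 CPM in control, 143, 163 and 130.4 in inv(3), 89.2, 102 and 107 with Sf3b1 K700E and 72.9, 88.4 and 78.5 in double libraries. All inv(3) libraries were above all control libraries and all double libraries below all Sf3b1 K700E libraries. Its level rose in inv(3) against control (0.30 ± 0.09, adjusted p = 0.024), fell in double against Sf3b1 K700E (-0.31 ± 0.09, adjusted p = 0.015) and fell in double against inv(3) (-0.86 ± 0.09, adjusted p = 0.00045). The difference between the first 2 effects, the interaction of the alleles, was -0.61 ± 0.13 (adjusted p = 0.058). The rise was not called without control replicate 1 (adjusted p = 0.069), control replicate 2 (0.050), control replicate 3 (0.055) or inv(3) replicate 2 (0.095), nor the fall on the mutant background without Sf3b1 K700E replicate 3 (0.054) or double replicate 1 (0.061). Itgb2l, a β2-like chain of mouse, was at 8.44, 8.22 and 6.01 CPM in control, 20.4, 31.7 and 21.2 in inv(3), 4.66, 8.42 and 11.1 with Sf3b1 K700E and 9.08, 12.9 and 13.2 in double libraries. This chain rose in inv(3) against control (1.69 ± 0.29, adjusted p = 0.00099). In double against inv(3) it fell (-1.05 ± 0.29, adjusted p = 0.024), a call that ended without inv(3) replicate 2 (0.081) or double replicate 1 (0.095).

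**Figure D3:**
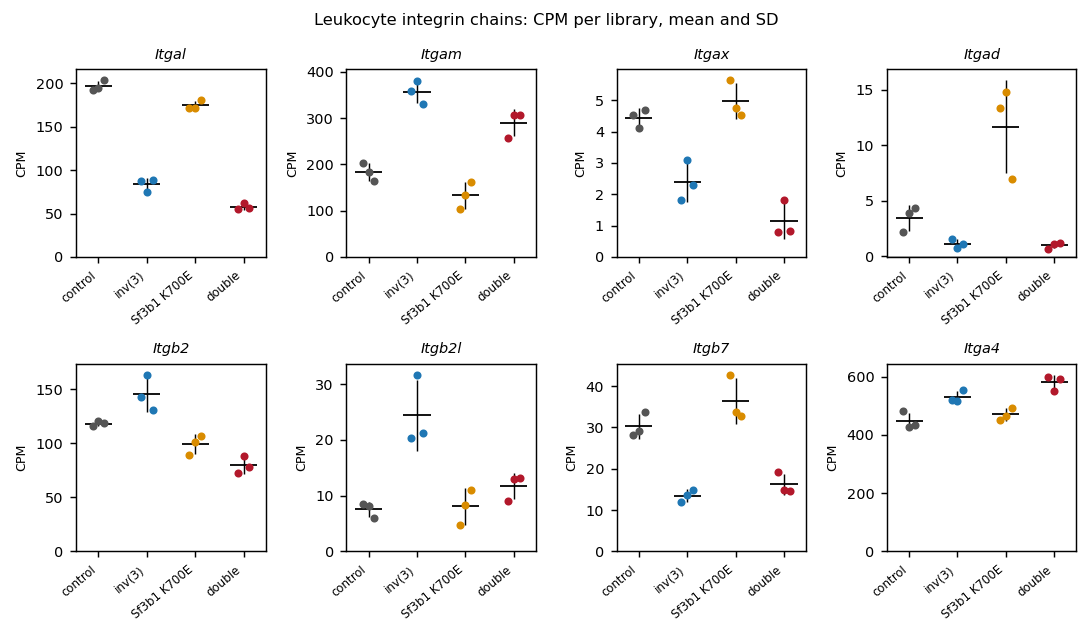
CPM per library (points), mean (bar) and SD (line) of 8 leukocyte integrin chains in the 4 groups. Itgal is lower and Itgam higher in every inv(3) and double library than in every library of the other groups, and Itgad is highest in the 3 Sf3b1 K700E libraries.

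Among the chains that bind VCAM1 and mucosal addressin, Itga4 was abundant and rose a little, whereas Itgb7 fell. Itga4 was at 481, 426 and 433 CPM in control, 520, 517 and 556 in inv(3), 452, 464 and 494 with Sf3b1 K700E and 598, 550 and 592 in double libraries. The gene rose in inv(3) against control (0.25 ± 0.06, adjusted p = 0.0048) and in double against Sf3b1 K700E (0.30 ± 0.06, adjusted p = 0.00099), with 8.0% of its exon bases shared with Cerkl. Itgb7, which pairs with α4 in gut-homing cells and in mast cell progenitors, was at 28.1, 29.1 and 33.7 CPM in control, 11.9, 13.6 and 14.98 in inv(3), 42.7, 33.6 and 32.8 with Sf3b1 K700E and 19.1, 14.97 and 14.5 in double libraries. Every library with inv(3) was below every library without it. The fall was -1.17 ± 0.14 in inv(3) against control (adjusted p = 5.9e-05) and -1.17 ± 0.14 in double against Sf3b1 K700E (adjusted p = 3.6e-05). Of 11 markers of mast cells and basophils tested, 8 fell and 1 rose in inv(3) against control (81.8%, beside 38.7% of all genes). In double against Sf3b1 K700E 7 fell and 1 rose (72.7%, beside 49.2%). The markers summed to 603 to 639 CPM in control, 211 to 246 in inv(3), 638 to 707 with Sf3b1 K700E and 204 to 244 in double libraries, with none at 0. Their part in the Itgb7 result was not tested. Vcam1, the ligand of α4, fell from 313 ± 62.6 CPM in control to 63.8 ± 17.0 in inv(3) libraries (-2.29 ± 0.22, adjusted p = 2.3e-05). Itgae, the other alpha chain that pairs with β7, was below 1 CPM in every library and passed in no comparison.

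Itga9, a relative of Itga4 that binds VCAM1 and osteopontin, was at 1.04, 1.42 and 1.86 CPM in control, 0.578, 0.248 and 0.296 in inv(3), 3.02, 4.22 and 2.13 with Sf3b1 K700E and 0.238, 0.338 and 0.211 in double libraries. The Sf3b1 K700E libraries were above and the inv(3) and double libraries below the control libraries, without overlap. This chain fell in inv(3) against control (-1.94 ± 0.36, adjusted p = 0.0014) and in double against Sf3b1 K700E (-3.57 ± 0.38, adjusted p = 1.6e-05), and its difference between Sf3b1 K700E and control did not pass (1.11 ± 0.32, adjusted p = 0.053).

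The collagen-binding alpha chains differed among themselves. Itga2, a platelet collagen receptor chain, was at 1.31, 1.68 and 1.43 CPM in control, 0.171, 0.124 and 0.259 in inv(3), 1.64, 1.78 and 1.45 with Sf3b1 K700E and 0.930, 0.559 and 0.594 in double libraries. The double libraries lay between the inv(3) libraries and the rest. It fell in inv(3) against control (-2.97 ± 0.28, adjusted p = 1.4e-05) and in double against Sf3b1 K700E (-1.22 ± 0.24, adjusted p = 0.0015), and rose in double against inv(3) (1.90 ± 0.29, adjusted p = 0.0017). The megakaryocyte and platelet markers summed to 196 to 228 CPM in control, 75.4 to 117 in inv(3), 253 to 351 with Sf3b1 K700E and 147 to 220.5 in double libraries. The adhesion receptor Selp made up 70.4% of that sum in double libraries and 52.5% in inv(3). Without Selp the sum was 164 to 190.0 CPM in control, 34.8 to 56.1 in inv(3), 206 to 295 with Sf3b1 K700E and 40.3 to 74.4 in double libraries. In inv(3) against control 8 of these 12 fell and Selp rose (75.0%, beside 38.7% of all genes). In double against inv(3), where Itga2 rose, Selp rose and no other was called (8.33%, beside 22.6%). None was at 0, and their part in the Itga2 result was not tested.

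Itga1, whose gene lies 20995 bases beyond that of Itga2 on chromosome 13, went the other way. It was at 18.2, 16.1 and 17.3 CPM in control, 31.0, 19.0 and 26.3 in inv(3), 13.99, 12.4 and 13.7 with Sf3b1 K700E and 56.8, 30.9 and 44.6 in double libraries. It rose in double against Sf3b1 K700E (1.72 ± 0.21, adjusted p = 5.6e-05), and in inv(3) against control its groups did not overlap, but the difference did not pass (0.56 ± 0.21, adjusted p = 0.050). The rise in double against inv(3) (0.79 ± 0.20, adjusted p = 0.019) was lost without inv(3) replicate 2 (0.055), double replicate 1 (0.079) or double replicate 3 (0.054), and with the libraries of those groups alone (0.077). Itga10, a chain best known from cartilage, lay between 2.08 and 3.68 CPM in all libraries. Its fall in inv(3) against control (-0.41 ± 0.14, adjusted p = 0.035) was lost without control replicate 1 (0.087), 2 (0.087) or 3 (0.070) and without inv(3) replicate 2 (0.11) or 3 (0.083), and with those groups alone (0.087).

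Of the laminin-binding chains, Itga6 (CD49f), used as a stem cell surface marker, was at 115, 105 and 109 CPM in control, 160.0, 167 and 159 in inv(3), 110.2, 125 and 123 with Sf3b1 K700E and 170.4, 186 and 182 in double libraries. Each library with inv(3) was above each library without it. The rise was 0.56 ± 0.06 in inv(3) against control (adjusted p = 2.1e-05) and 0.59 ± 0.06 in double against Sf3b1 K700E (adjusted p = 8.6e-06). Of 13 other stem and early progenitor markers 1 rose and 8 fell in the first of these comparisons (69.2%, beside 38.7% of all genes). In the second 2 rose and 8 fell (76.9%, beside 49.2%). Itgb4, the partner of α6 in epithelial hemidesmosomes, was at 0.380, 0.555 and 0.530 CPM in control, 0.998, 0.715 and 0.813 in inv(3), 0.664, 0.387 and 0.489 with Sf3b1 K700E and 1.82, 1.18 and 1.73 in double libraries. The double libraries were above all others. It rose in double against Sf3b1 K700E (1.62 ± 0.26, adjusted p = 0.00030) and in inv(3) against control (0.78 ± 0.26, adjusted p = 0.034), the latter not without control replicate 1 (0.12), 2 (0.051) or 3 (0.057) or inv(3) replicate 1 (0.10) or 3 (0.061). Itga3, with 19 counts in the 3 inv(3) libraries together and 56 in the control libraries, fell in inv(3) against control (-1.495 ± 0.39, adjusted p = 0.010). Its fall in double against Sf3b1 K700E (-1.22 ± 0.34, adjusted p = 0.010) was lost without Sf3b1 K700E replicate 1 (-0.87, adjusted p = 0.052).

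Of the chains that bind the RGD motif of fibronectin and vitronectin, Itga5 and Itgav were abundant and Itga8 was not. Itga5, the fibronectin receptor chain, lay between 70.6 and 84.8 CPM in all libraries, and its rise in double against Sf3b1 K700E was small (0.15 ± 0.04, adjusted p = 0.012). That call ended without Sf3b1 K700E replicate 2 (0.098) or 3 (0.055), without double replicate 2 (0.057) and with those groups alone (0.090). Itgav lay between 25.2 and 34.1 CPM and passed in no comparison. Itga8, at 0.273 to 0.826 CPM, fell in double against Sf3b1 K700E (-1.05 ± 0.24, adjusted p = 0.0030). Itgb1 lay between 217 and 271 CPM, and its fall in that comparison (-0.14 ± 0.05, adjusted p = 0.039) was lost without Sf3b1 K700E replicate 2 (0.11) or 3 (0.057), without double replicate 1 (0.093), 2 (0.056) or 3 (0.081) and with no low-count filter (0.054). Itgb6, an epithelial chain, stayed below 0.358 CPM and passed in none. The 3 integrin-binding proteins, Itgb1bp1 (an adaptor that binds the β1 tail), Itgb1bp2 (a muscle protein, melusin) and Itgb3bp (a centromere protein also known as CENP-R), passed in no comparison, with adjusted p of at least 0.10 throughout.

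The type IV collagen chains Col4a1 and Col4a2 and the laminin chains Lama3, Lama5 and Lamb3, all of basement membranes, rose with inv(3). Col4a1 was at 2.52, 3.71 and 4.24 CPM in control, 14.1, 27.0 and 21.5 in inv(3), 5.89, 6.70 and 4.45 with Sf3b1 K700E and 43.1, 37.5 and 46.8 in double libraries. All 4 groups were apart, in the order control, Sf3b1 K700E, inv(3) and double. It rose in inv(3) against control (2.58 ± 0.26, adjusted p = 2.4e-05), in double against Sf3b1 K700E (2.90 ± 0.25, adjusted p = 5.4e-06) and in double against inv(3) (1.03 ± 0.23, adjusted p = 0.011). Between Sf3b1 K700E and control the difference did not pass (0.70 ± 0.25, adjusted p = 0.11).

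Col4a2, whose promoter window overlaps that of Col4a1 as shown above, was at 3.12, 3.81 and 4.13 CPM in control, 12.2, 22.5 and 17.0 in inv(3), 5.27, 6.03 and 4.68 with Sf3b1 K700E and 36.8, 29.4 and 41.7 in double libraries. The groups had the same order without overlap, and within the inv(3) group replicate 1 was the lowest for both genes. Its level rose in inv(3) against control (2.22 ± 0.22, adjusted p = 2.1e-05), in double against Sf3b1 K700E (2.76 ± 0.22, adjusted p = 2.6e-06) and in double against inv(3) (1.06 ± 0.20, adjusted p = 0.0048). The ratio of Col4a1 to Col4a2 in TPM was 0.911 ± 0.108 in control, 1.17 ± 0.0557 in inv(3), 1.03 ± 0.0930 with Sf3b1 K700E and 1.15 ± 0.0777 in double libraries (SD, n = 3). The other basement membrane collagens did not move with them. Col4a5 lay between 0.151 and 0.585 CPM and passed in no comparison. Col18a1, which carries endostatin at its end, was at 0.301, 0.668 and 0.554 CPM in control, 0.105, 0.0413 and 0.0739 in inv(3), 0.712, 1.02 and 0.389 with Sf3b1 K700E and 0.143, 0.143 and 0.0396 in double libraries. Its level fell in inv(3) against control (-2.76 ± 0.54, adjusted p = 0.0019) and in double against Sf3b1 K700E (-2.67 ± 0.50, adjusted p = 0.00092).

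Lama5 (chr2:180176373-180225859, minus strand), the alpha chain of the laminins found in most adult basement membranes, was at 1.60, 2.004 and 2.66 CPM in control, 8.88, 12.2 and 9.22 in inv(3), 3.91, 3.45 and 3.05 with Sf3b1 K700E and 18.0, 18.0 and 16.1 in double libraries. The groups were apart in the same order as for type IV collagen. This chain rose in inv(3) against control (2.27 ± 0.18, adjusted p = 3.7e-06), in double against Sf3b1 K700E (2.33 ± 0.18, adjusted p = 1.5e-06) and in double against inv(3) (0.79 ± 0.17, adjusted p = 0.0073). Lama3, an epithelial alpha chain, was at 0.236, 0.126 and 0.185 CPM in control, 0.551, 0.688 and 0.653 in inv(3), 0.422, 0.349 and 0.289 with Sf3b1 K700E and 1.30, 0.910 and 1.36 in double libraries. These groups too were apart in that order. The gene rose in inv(3) against control (1.79 ± 0.28, adjusted p = 0.00039) and in double against Sf3b1 K700E (1.75 ± 0.25, adjusted p = 0.00014). Its rise in double against inv(3) (0.91 ± 0.24, adjusted p = 0.019) was lost without double replicate 1 (0.070) or 3 (0.079).

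Lamb3, the beta chain that pairs with Lama3 in epithelial laminin, was at 1.38, 1.60 and 1.72 CPM in control, 3.26, 5.09 and 3.80 in inv(3), 1.75, 1.28 and 1.51 with Sf3b1 K700E and 3.54, 3.63 and 3.35 in double libraries. The inv(3) and double groups overlapped and were above the other 2. The rise was 1.37 ± 0.18 in inv(3) against control (adjusted p = 0.00013) and 1.21 ± 0.18 in double against Sf3b1 K700E (adjusted p = 0.00019). Lamc1, the common gamma chain, lay between 1.75 and 12.5 CPM and passed in no comparison, with inv(3) replicate 2 the lowest. Lamb2 was at 2.20, 1.22 and 2.06 CPM in double libraries and 0.702 to 1.24 CPM in the rest. Its rise in double against Sf3b1 K700E (0.98 ± 0.30, adjusted p = 0.018) ended without Sf3b1 K700E replicate 2 (0.078) or 3 (0.060) or double replicate 1 (0.071) or 3 (0.062). Its rise in double against control (0.86 ± 0.30, adjusted p = 0.039) ended without control replicate 1 (0.14) or 2 (0.084) or double replicate 1 (0.14) or 3 (0.12).

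**Figure D4:**
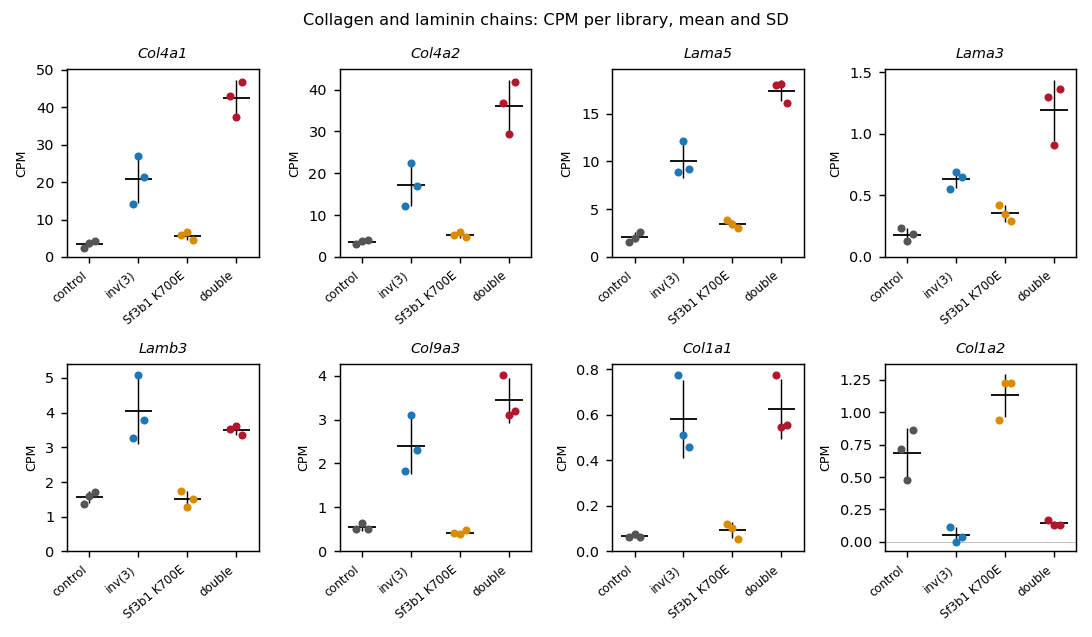
CPM per library (points), mean (bar) and SD (line) of 8 collagen and laminin chains in the 4 groups. Col4a1, Col4a2 and Lama5 are highest in the double libraries, and Col1a1 and Col1a2 lie on opposite sides of the control libraries in the inv(3) and double groups.

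Markers of stromal, bone-forming and vessel cells were read beside these chains. Of 15 such markers 5 were high enough to test, of which 3 fell and none rose in inv(3) against control and 4 fell and none rose in double against Sf3b1 K700E. All 15 together summed to 96.0 to 102 CPM in control, 54.3 to 57.9 in inv(3), 97.8 to 105 with Sf3b1 K700E and 46.6 to 53.8 in double libraries. Runx2, a transcription factor of bone-forming cells, made up 76.7% to 97.9% of that sum in each group. Without Runx2 the sum was 16.0 to 19.8 CPM in control, 0.674 to 3.24 in inv(3), 21.1 to 26.4 with Sf3b1 K700E and 0.819 to 1.31 in double libraries. At 0 in the group were Lum and Prrx1 in control, Pdgfra and Prrx1 in inv(3), and Sp7, Dcn, Lum and Prrx1 in double libraries. Of 11 endothelial markers tested 7 fell and 1 rose in inv(3) against control (72.7%, beside 38.7% of all genes). In double against Sf3b1 K700E 8 fell and 1 rose (81.8%, beside 49.2%), and in double against control 6 fell and 3 rose (81.8%, beside 41.1%). In double against inv(3), where Col4a1, Col4a2 and Lama5 rose, 4 of these markers rose and none fell (36.4%, beside 22.6%). None of the endothelial markers was at 0 in a group, and their sum was 138 to 157 CPM in control, 122 to 147 in inv(3), 158 to 179 with Sf3b1 K700E and 168 to 209 in double libraries. Pecam1 made up 51.0% to 76.1% of it. The part of stromal, bone-forming or endothelial cells in the collagen and laminin results was not tested.

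The chains of type I collagen, which in connective tissue form 1 trimer of both, moved in opposite directions. Col1a1 (chr11:94936224-94953042) had 5, 6 and 5 counts in control, 59, 37 and 37 in inv(3), 10, 8 and 5 with Sf3b1 K700E and 65, 42 and 42 in double libraries. Every library with inv(3) had more than every library without it. Col1a1 reached the count minimum only through the libraries with inv(3), with 133 counts in inv(3) and 149 in double, beside 16 in control and 23 with Sf3b1 K700E. It rose in inv(3) against control (3.07 ± 0.35, adjusted p = 4.8e-05) and in double against Sf3b1 K700E (2.74 ± 0.33, adjusted p = 4.0e-05). Col1a2 (chr6:4504814-4541544) had 55, 38 and 70 counts in control, 9, 0 and 3 in inv(3), 78, 95 and 110 with Sf3b1 K700E and 14, 10 and 10 in double libraries. Every library with inv(3) had fewer than every library without it. Col1a2 reached the count minimum only through the libraries without inv(3), with 163 counts in control and 283 with Sf3b1 K700E, beside 12 in inv(3) and 34 in double. This chain fell in inv(3) against control (-3.68 ± 0.53, adjusted p = 0.00024; -5.04 without inv(3) replicate 1) and in double against Sf3b1 K700E (-2.97 ± 0.44, adjusted p = 0.00020). Even at its highest, each chain stayed below 1.23 CPM.

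Of the other fibril-forming chains, Col5a3 was at 5.93, 6.24 and 6.63 CPM in control, 6.11, 6.52 and 6.68 in inv(3), 4.10, 3.11 and 4.12 with Sf3b1 K700E and 3.66, 4.39 and 3.67 in double libraries. Every library with the Sf3b1 mutation was below every library without it. It fell in Sf3b1 K700E against control (-0.73 ± 0.12, adjusted p = 0.0079) and in double against inv(3) (-0.72 ± 0.12, adjusted p = 0.0032), comparisons that share no library. Col27a1, with 81 counts at most in a group, fell in inv(3) against control (-1.65 ± 0.46, adjusted p = 0.014; -2.51 without inv(3) replicate 1), a call lost without inv(3) replicate 3 (0.057). Col5a1 lay between 4.52 and 10.8 CPM and Col11a2 between 7.81 and 20.1, and neither passed in any comparison.

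Among the collagens that sit on the surface of fibrils, Col9a3 (chr2:180597790-180622189), a type IX chain of cartilage, was at 0.511, 0.643 and 0.505 CPM in control, 1.83, 3.10 and 2.30 in inv(3), 0.422, 0.387 and 0.478 with Sf3b1 K700E and 4.02, 3.11 and 3.18 in double libraries. Each library with inv(3) was above each library without it. Its level rose in inv(3) against control (2.12 ± 0.22, adjusted p = 2.3e-05) and in double against Sf3b1 K700E (2.99 ± 0.22, adjusted p = 1.3e-06), and 6.1% of its exon bases overlap Tcfl5. The chains it trimerises with, Col9a1 and Col9a2, had 0 counts and 1 count in all libraries together.

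Col14a1 (chr15:55307750-55520803) went the other way. It was at 1.85, 1.60 and 2.06 CPM in control, 0.591, 0.193 and 0.579 in inv(3), 5.88, 7.41 and 3.82 with Sf3b1 K700E and 0.608, 0.728 and 0.462 in double libraries. The Sf3b1 K700E libraries were above and the libraries with inv(3) below control. It fell in inv(3) against control (-2.002 ± 0.36, adjusted p = 0.0011) and in double against Sf3b1 K700E (-3.25 ± 0.35, adjusted p = 2.1e-05). Col16a1 was at 2.42, 3.42 and 3.58 CPM in control, 1.67, 0.344 and 0.493 in inv(3), 5.84, 5.37 and 3.87 with Sf3b1 K700E and 3.35, 2.48 and 2.75 in double libraries. The inv(3) libraries were the lowest. Its level fell in inv(3) against control (-1.91 ± 0.45, adjusted p = 0.0059; -2.90 without inv(3) replicate 1). Its rise in double against inv(3) (1.78 ± 0.45, adjusted p = 0.017; 2.76 without inv(3) replicate 1) was lost without inv(3) replicate 3 (0.054), without double replicate 1 (0.059) and with those groups alone (0.073).

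The remaining fibril-associated chains were called once each. Col19a1, below 0.882 CPM throughout, rose in double against control (1.53 ± 0.47, adjusted p = 0.022), but not without control replicate 1 (0.069) or 2 (0.076) or double replicate 1 (0.094) or 3 (0.063). Col20a1, at 1.06 to 2.12 CPM, fell in double against inv(3) (-0.63 ± 0.21, adjusted p = 0.049), a call that ended under 11 alternatives, with adjusted p of up to 0.17. These were the fit with no low-count filter, the fit of those groups alone, and the fits without any 1 of the 3 control or 3 inv(3) libraries, Sf3b1 K700E replicate 2, or double replicate 1 or 3. Of the anchoring and membrane collagens, Col23a1 was at 0.668, 0.479 and 0.419 CPM in control, 0.0788, 0.358 and 0.0986 in inv(3), 0.796, 0.633 and 0.678 with Sf3b1 K700E and 0.0596, 0.221 and 0.0924 in double libraries. Replicate 2 was the highest in both groups with inv(3), and without it the fall was larger: -3.20 without double replicate 2 against -2.50 ± 0.52 with it in double against Sf3b1 K700E (adjusted p = 0.0020 with all libraries), and -2.53 without inv(3) replicate 2 against -1.56 ± 0.51 with it in inv(3) against control (adjusted p = 0.030 with all libraries). The latter call was lost without control replicate 1 (0.096) or 2 (0.056), without inv(3) replicate 1 (0.088) or 3 (0.10) and with those groups alone (0.060). Col7a1 (1.47 to 2.47 CPM), Col17a1 and Col28a1 (0.0688 to 0.413 CPM) passed in no comparison. Col17a1 scattered most within a group, at 1.30, 0.0550 and 2.83 CPM in the inv(3) libraries.

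With the Sf3b1 mutation and without inv(3), 4 members rose and Col5a3, described above, fell. The genes that rose were Itgad (1.75 ± 0.35, adjusted p = 0.015), Col14a1 (1.63 ± 0.32, adjusted p = 0.013), Itgb5 (0.71 ± 0.16, adjusted p = 0.021) and Lama5 (0.73 ± 0.18, adjusted p = 0.031). Itgb5, a partner of αv, was at 4.69, 5.76 and 6.72 CPM in control, 4.45, 4.13 and 4.70 in inv(3), 10.3, 10.7 and 7.16 with Sf3b1 K700E and 5.55, 4.99 and 5.47 in double libraries. The Sf3b1 K700E libraries were above all others, and Itgb5 fell in double against Sf3b1 K700E (-0.82 ± 0.16, adjusted p = 0.0013). No member was called higher without control replicate 2 or without Sf3b1 K700E replicate 2, beside 4 with all libraries, and 2 were without control replicate 1 or Sf3b1 K700E replicate 1. Without those 2 libraries in turn, the adjusted p was 0.063 and 0.074 for Itgad, 0.074 and 0.073 for Col14a1, 0.085 and 0.10 for Itgb5 and 0.12 and 0.11 for Lama5. Without control replicate 1 or Sf3b1 K700E replicate 1 it was 0.069 and 0.055 for Itgb5 and 0.087 and 0.074 for Lama5, and Lama5 was at 0.052 with the libraries of those groups alone.

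The summed markers of tissue macrophages, a list that holds Vcam1, were highest in the Sf3b1 K700E libraries, as were Itgad, Itgb5, Col14a1 and Itga9. Of these genes, Itga9 did not pass in Sf3b1 K700E against control and Itgb5 did not pass in inv(3) against control. Of 15 markers, all tested, 13 rose and none fell in Sf3b1 K700E against control (86.7%, beside 8.84% of all genes). None rose and all 15 fell in double against Sf3b1 K700E, where 49.2% of all genes were called. In inv(3) against control 1 rose and 10 fell (73.3%, beside 38.7%). Their summed level was 453, 379 and 379 CPM in control replicates 1 to 3, 145, 92.4 and 127 in inv(3), 585, 760 and 517 with Sf3b1 K700E and 81.0, 103 and 80.7 in double libraries. Vcam1 made up 43.9% to 77.4% of the sum in each group. Without Vcam1 it was 68.3 to 111 CPM in control, 48.1 to 70.5 in inv(3), 210.0 to 443 with Sf3b1 K700E and 39.2 to 60.3 in double libraries. None was at 0 in a group. Sf3b1 K700E replicate 2 was the highest and replicate 3 the lowest of its group for this sum, for Itgad, Itga9, Itgb5 and for Col14a1. Among the markers, Mertk rose by 2.73 ± 0.42 (adjusted p = 0.0064) and C1qa by 2.29 ± 0.42 (adjusted p = 0.011). The part of macrophages in these results was not tested. Lama5 had another order, lowest in Sf3b1 K700E replicate 3 and highest in replicate 1, and unlike the markers it was higher in inv(3) and double libraries.

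**Figure D5:**
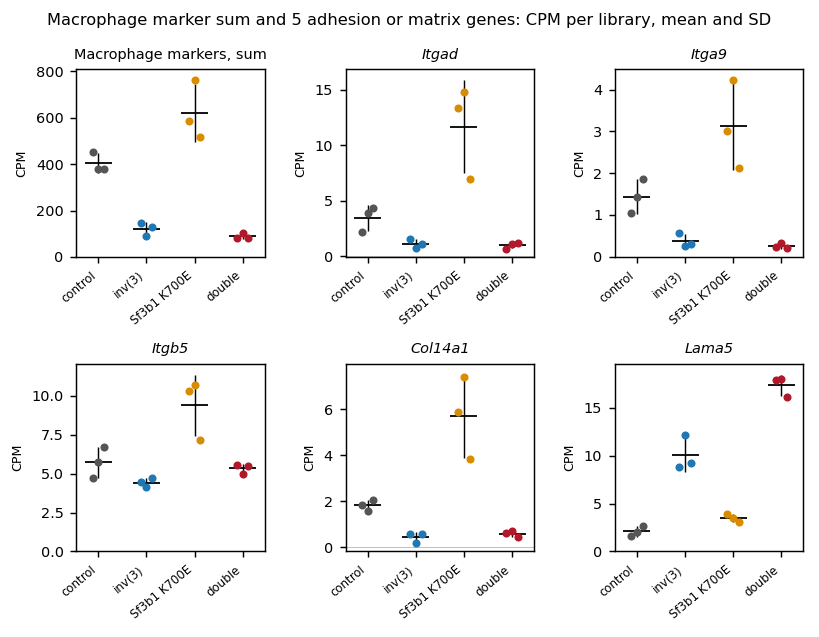
CPM per library (points), mean (bar) and SD (line) of the sum of 15 macrophage markers and of Itgad, Itga9, Itgb5, Col14a1 and Lama5 in the 4 groups. The first 5 panels are highest in the 3 Sf3b1 K700E libraries, whereas Lama5 is highest in the double libraries at 16.1 to 18.0 CPM.

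In double against inv(3) libraries, Itga1, Itga2, Itgb4, Col4a1, Col4a2, Col16a1, Lama3 and Lama5 rose and Itgal, Itgax, Itgb2, Itgb2l, Col5a3 and Col20a1 fell, most of them with the values given above. The number that rose was 4 without double replicate 1 and 5 without double replicate 3, and the number that fell was 3 without double replicate 1. Of the calls given so far only by name, that of Itgb4 (0.91 ± 0.25, adjusted p = 0.023) ended without inv(3) replicate 2 (0.067) or 3 (0.063), without double replicate 1 (0.091) or 3 (0.084) and with those groups alone (0.051). That of Itgax (-1.07 ± 0.29, adjusted p = 0.023) ended without inv(3) replicate 2 (0.076), without double replicate 1 (0.090) or 3 (0.093) and with those groups alone (0.091). Col4a1, Col4a2, Lama5, Itgal, Itgb2, Itga2 and Col5a3 were called without each library in turn.

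Whether 1 allele acts differently in the presence of the other was tested as the interaction, the change by Sf3b1 K700E with inv(3) less that without it. In edgeR no member passed, beside 0.4% of all genes higher and 0.436% lower, 0.836% together. Among the members, 13 of 49 had an unadjusted p under 0.05, beside 16.4% of all genes, and the smallest adjusted p were 0.056 for Itga2 (1.76 ± 0.38) and 0.058 for Itgb2. DESeq2, run as an alternative, called 2 members higher and 4 lower. For type IV collagen the interaction was 0.33 ± 0.34 for Col4a1 and 0.53 ± 0.29 for Col4a2, and for Lama5 0.06 ± 0.25.

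The other genes of the adhesion pathway were read from lists. Of 24 adaptors and activators that join integrin tails to actin or switch integrins on, 12 rose and 6 fell in inv(3) against control and 13 rose and 7 fell in double against Sf3b1 K700E. That is 75.0% and 83.3% of the list, beside 38.7% and 49.2% of all genes. Actn1, an actin cross-linker, went from 90.7 ± 4.32 CPM in control to 213 ± 20.2 in inv(3) libraries (SD, n = 3), a rise of 1.23 ± 0.09 (adjusted p = 3.1e-06). Ptk2, the focal adhesion kinase, fell by 1.77 ± 0.16 (adjusted p = 9.0e-06), and Ptk2b, its relative in blood cells, rose by 0.31 ± 0.04 (adjusted p = 6.4e-05). In Sf3b1 K700E against control 1 of the 24 rose and 5 fell (25.0%, beside 8.84% of all genes), among them the actin-binding Flna (-0.25 ± 0.04, adjusted p = 0.0073).

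Of 16 ligands tested, 4 rose and 7 fell in inv(3) against control and 4 and 7 in double against Sf3b1 K700E (68.8% of the list in each, beside 38.7% and 49.2% of all genes). Thbs1, a matrix ligand of several integrins, was at 12.1, 13.8 and 12.2 CPM in control, 62.7, 47.8 and 43.2 in inv(3), 5.90, 8.62 and 5.81 with Sf3b1 K700E and 58.5, 52.8 and 36.4 in double libraries. It rose by 2.01 ± 0.20 in inv(3) against control (adjusted p = 2.7e-05) and fell by 0.91 ± 0.21 in Sf3b1 K700E against control (adjusted p = 0.024). Spp1 (osteopontin, bound by α9 and αv) rose by 1.73 ± 0.15 with inv(3) (adjusted p = 7.7e-06), and Icam1, the ligand of Itgal with β2, fell by 0.57 ± 0.08 (adjusted p = 0.00016).

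Among 13 other matrix proteins 2 rose and 4 fell in inv(3) against control (46.2%, beside 38.7% of all genes). Ecm1 rose by 2.63 ± 0.12 (adjusted p = 6.5e-08) and Emilin2 fell by 1.59 ± 0.12 (adjusted p = 2.6e-06), and the basement membrane proteoglycan Agrn rose by 1.31 ± 0.13 (adjusted p = 1.9e-05). Among 14 other receptors for collagen and laminin 2 rose and 3 fell (35.7%), a share near that of all genes. The collagen receptor kinase Ddr1 rose from 0.435 to 2.58 CPM in the group means (2.56 ± 0.18, adjusted p = 1.5e-06), and the syndecan Sdc1 fell by 3.43 ± 0.27 (adjusted p = 3.1e-06). In Sf3b1 K700E against control Sdc3 rose by 2.14 ± 0.33 (adjusted p = 0.0064). Of 15 enzymes that modify and cut collagen chains, 3 rose and 5 fell in inv(3) against control (53.3%, beside 38.7% of all genes). The smallest p-values were those of the prolyl hydroxylase P3h1 (-0.71 ± 0.06, adjusted p = 4.6e-06) and the lysyl hydroxylase Plod1 (0.79 ± 0.09, adjusted p = 4.6e-05). The largest fall was that of the prolyl hydroxylase P4ha2 (-3.27 ± 0.70, adjusted p = 0.0031), which was very low, at group means of 0.139 CPM in control and 0.0126 in inv(3).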

How the data were processed

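The authors sequenced poly(A)-selected RNA as unstranded TruSeq libraries, per the labels' protocols, and bcl2fastq and mm10 are named in the submitters' processing notes. The deposited tables have RSEM's columns, per the file headers: expected counts, gene length and effective length in bases, TPM and FPKM (deposited, not used). No aligner is named in the sources used here. Expected counts were the authors' estimates and were rounded to whole numbers. Genes were kept by filterByExpr by group (13755 of 24411), scaled by TMM and fitted in 1 edgeR 4.0.16 quasi-likelihood model (robust, R 4.3.3) over the 4 groups, and two-sided p-values were adjusted by Benjamini-Hochberg over those genes with a limit of 0.05. Standard errors come from the F statistic. CPM are counts over TMM library sizes. TPM, as deposited by the authors, served only to compare genes. The code was tested on simulated data. Groups came from the labels.

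The members and gene lists were chosen with earlier results of these data known. Every member is named, with full values for those that passed, up to 12 a comparison by smallest p, and of each list up to 4 genes a comparison. Alternatives were DESeq2 1.42.0, RLE scaling, an offset for effective length, testing without the low-count filter, testing only genes with a mean of 5 CPM or more, fits of just the groups compared, a block for replicate number, and leaving out each library. Reads of overlapping genes cannot be told apart by strand. Gene positions come from GENCODE on GRCm38.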

Additional observations from a re-analysis of the deposited data

How the results depend on the processing

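Of 101 calls of single members, 77 held under all alternatives that tested them, 24 were lost under at least 1 and none reversed. With a mean of at least 5 CPM only 21 members were tested: 8 rose and 3 fell in inv(3) against control (1794 of all genes fell), 2 rose in Sf3b1 K700E against control, 7 rose and 4 fell in double against control, 4 rose in double against inv(3), 8 rose and 5 fell in double against Sf3b1 K700E (2324 of all genes rose), and in the interaction 1 member was lower and 33 genes were higher. With the groups compared alone, 818 genes and 7 members rose and 3 members fell in Sf3b1 K700E against control, and 1068 genes and 5 members rose in double against inv(3). DESeq2 had 903 genes higher and 2 members lower in Sf3b1 K700E against control, and in the interaction 306 genes and 2 members higher and 316 genes and 4 members lower. RLE scaling, no low-count filter and the effective-length offset moved no count by over 1.5 times.

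Replicate numbers do not pair the samples: deviations of same-numbered libraries correlated between -0.379 and 0.27 (median -0.002, 18 pairs). With the number as a block, 310 genes and 2 members rose and 344 genes fell in Sf3b1 K700E against control, and in the interaction 28 genes and 1 member were higher and 32 genes lower. The calls of single members lost with the block were those of Itgb5 (adjusted p = 0.052) and Lama5 (0.060) in Sf3b1 K700E against control and of Itgb1 in double against Sf3b1 K700E (0.067).

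Leaving out 1 library at a time, members that rose or fell numbered 11 to 14 and 10 to 15 in inv(3) against control, 0 to 6 and 1 to 2 in Sf3b1 K700E against control, 12 to 15 and 12 to 14 in double against control, 4 to 12 and 3 to 6 in double against inv(3), 12 to 14 and 13 to 18 in double against Sf3b1 K700E, and 0 to 2 and 0 to 3 in the interaction. Over all genes, 1996 to 2687 rose and 2202 to 2877 fell in inv(3) against control, 116 to 781 and 52 to 868 in Sf3b1 K700E against control (both low ends without Sf3b1 K700E replicate 2), 2230 to 2947 and 2203 to 3017 in double against control, 985 to 1936 and 581 to 1406 in double against inv(3) (both low ends without double replicate 3), 2670 to 3674 and 2767 to 3464 in double against Sf3b1 K700E, and 13 to 196 and 16 to 127 in the interaction.

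Members below about 1 CPM rest on few counts a library, so that differences there carry wide errors, and a difference that did not pass is not shown to be absent.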

Other observations

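Some names of these families below the count minimum were uneven over the groups. Col4a4 had 45 of its 59 counts in the 3 double libraries, 6 in inv(3), 6 in Sf3b1 K700E and 2 in control libraries. Col6a6 had 41 counts in Sf3b1 K700E, 16 in control and 0 in inv(3) and double libraries. Lama4, a vessel laminin chain, had 21 counts in Sf3b1 K700E, 11 in control, 0 in inv(3) and 2 in double libraries. Col4a6 had 27, 13, 5 and 2 counts in the same order. These genes were singled out after their values were seen, and they were not tested. Among marker lists, 8 of 12 erythroid markers fell and 1 rose in inv(3) against control (75.0%, beside 38.7% of all genes). All 12 fell in double against Sf3b1 K700E, where 49.2% of all genes were called. Of 13 stem and early progenitor markers 1 rose and 8 fell in inv(3) against control (69.2%, beside 38.7%). In double against Sf3b1 K700E 2 rose and 8 fell (76.9%, beside 49.2%). In double against inv(3) 9 rose and none fell (69.2%, beside 22.6%). Of 10 monocyte and dendritic markers tested 8 fell and none rose in inv(3) against control (80.0%, beside 38.7%).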
